A study of Mus musculus with 6 samples.

Results

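Foxp3 and 9 further genes typical of regulatory T cells, 10 genes in all of 21233 in the count table, were examined in Th9 cells of the mouse, CD4 helper T cells that secrete interleukin 9. The genes were chosen by symbol as Foxp3, Ikzf2, Ikzf4, Gpr83, Nt5e, Lrrc32, Izumo1r, Nrp1, Ebi3 and Capg. All 10 were in the table, and all 10 passed the filter on low counts that left 13255 genes for testing. The 6 RNA-seq libraries were 3 of Th9 cells given sorafenib, a drug that blocks RAF kinases and several receptor tyrosine kinases, and 3 of control Th9 cells named only as controls. Both groups carried the same cell type label, and the mouse strain, the age, the way the cells were polarised, and the dose and time of sorafenib were not given in the sources used here. Nothing in the labels says that the numbered replicates came from separate cultures or animals; p-values therefore measure only how far these samples spread, which may be a technical spread.

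Foxp3 is the transcription factor that specifies regulatory T cells, which restrain other immune cells. In CD4 T cells, TGF-beta and interleukin 2 signals promote its transcription, and Th9 cells are themselves known to be induced with TGF-beta together with interleukin 4. The other genes stand around Foxp3 in several roles. Ikzf2 (Helios) and Ikzf4 (Eos) encode transcription factors of the Ikaros family, and Lrrc32, Nrp1, Izumo1r, Gpr83 and Nt5e encode surface proteins that are enriched on mouse regulatory T cells. Ebi3 encodes a secreted cytokine subunit, and Capg encodes an actin-capping protein of the gelsolin family.

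Total counts were 37138708 to 38126521 in the sorafenib libraries and 36981476 to 37823139 in the control libraries. A count of 0 would have allowed up to 0.0766 to 0.0871 CPM per library, taking 3 counts as the floor; this covers counting error only. Control replicate 2 stood apart from the rest. Its scaling factor was 0.922, against 0.993 to 1.03 in the other 5 libraries, and its mean Spearman correlation with its own group was 0.990, against 0.993 to 0.997 in the others. For the genes named below, results that turn on that library are given with and without it. The labelled cell type was checked against its markers: all 8 T cell markers were tested, with Cd4 at 496 ± 10.7 CPM in sorafenib cells and 476 ± 35.9 CPM in control cells (SD, n = 3 each), and Il9 had 9681 to 10993 counts in sorafenib and 6614 to 7345 counts in control libraries. Of 6 Th9 markers 3 rose, Il9, Gata3 and Etv5, where 17.9% of all tested genes were called. Irf4, Batf and Spi1 did not pass the test. Without control replicate 2, Irf4 was called lower (log2 fold change -0.30, edgeR adjusted p = 0.000236) and Batf higher (0.22, edgeR adjusted p = 0.00383). In that fit 4 of the 6 markers rose and 1 fell, where 31.8% of all tested genes were called. Spi1, which encodes the Th9 factor PU.1, stood low, at 32 to 39 counts in sorafenib and 13 to 24 counts in control libraries.

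The DNA before the transcription start is shown for the genes with the largest changes, Foxp3 and Nrp1, which were higher with sorafenib, and Gpr83 and Izumo1r, which were lower and are neighbours on chromosome 9. RefSeq sequences of build GRCm38.p6 matched 7 of the 10 genes, and the 250 bases before each annotated start were searched on both strands for TATAAA (the TATA box), TTCNNNGAA (bound by STAT factors), TGANTCA (bound by AP-1) and TGTTTAC (bound by forkhead factors). Capitals mark a match. Foxp3 has 2 annotated starts in this table.
Foxp3, start 1, chrX:7579426-7579675, plus strand: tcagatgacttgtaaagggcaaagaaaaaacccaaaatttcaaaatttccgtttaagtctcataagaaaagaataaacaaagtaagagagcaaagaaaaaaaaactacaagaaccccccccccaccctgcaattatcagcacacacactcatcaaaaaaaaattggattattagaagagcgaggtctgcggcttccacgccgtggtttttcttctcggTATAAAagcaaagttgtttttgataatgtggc
Foxp3, start 2, chrX:7580233-7580482, plus strand: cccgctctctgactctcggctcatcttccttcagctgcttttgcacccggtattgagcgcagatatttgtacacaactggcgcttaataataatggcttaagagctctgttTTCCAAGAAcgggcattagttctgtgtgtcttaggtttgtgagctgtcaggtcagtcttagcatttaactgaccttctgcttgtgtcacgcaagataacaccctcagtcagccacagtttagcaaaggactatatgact
Nrp1, chr8:128358823-128359072, plus strand: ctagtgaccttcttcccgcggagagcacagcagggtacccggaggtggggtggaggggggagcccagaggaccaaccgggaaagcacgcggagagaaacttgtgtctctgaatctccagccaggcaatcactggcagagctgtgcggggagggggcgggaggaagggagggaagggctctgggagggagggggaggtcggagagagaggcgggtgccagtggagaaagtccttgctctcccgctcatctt
Gpr83, chr9:14859960-14860209, plus strand: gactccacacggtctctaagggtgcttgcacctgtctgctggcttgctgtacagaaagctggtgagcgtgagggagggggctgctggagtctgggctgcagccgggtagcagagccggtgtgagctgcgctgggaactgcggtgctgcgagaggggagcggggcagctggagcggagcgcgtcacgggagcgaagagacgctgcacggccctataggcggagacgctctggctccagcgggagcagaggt
Izumo1r, chr9:14903768-14904017, minus strand: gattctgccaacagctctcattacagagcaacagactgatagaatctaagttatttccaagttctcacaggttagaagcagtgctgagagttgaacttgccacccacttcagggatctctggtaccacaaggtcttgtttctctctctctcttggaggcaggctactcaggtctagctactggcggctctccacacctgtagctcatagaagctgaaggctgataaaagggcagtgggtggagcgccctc
The first Foxp3 window holds 1 TATA box, which begins 32 bases before the start, and the second holds 1 STAT match, which begins 139 bases before the start. Of 32851 promoter windows of this length, 12.4% held a TATA box, 7.02% a STAT match, 6.75% an AP-1 match and 3.17% a forkhead match. The windows of Nrp1, Gpr83 and Izumo1r held none of the 4 letter patterns. The GC content was 37.6% and 46.0% in the Foxp3 windows, 64.4% in that of Nrp1, 66.8% in that of Gpr83 and 50% in that of Izumo1r. A match is a description of the letters, and no binding was measured here.

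Sorafenib and control cells were compared with edgeR's quasi-likelihood test on the deposited counts, with adjustment over all 13255 tested genes. Of the 10 genes, Foxp3 and Nrp1 rose, Gpr83, Izumo1r, Lrrc32 and Ikzf2 fell, and Ikzf4, Nt5e, Ebi3 and Capg did not pass the test. Thus 2 were called higher and 4 lower at an adjusted p under 0.05, where 8.51% of all tested genes were called higher and 9.43% lower, 17.9% in either direction. The median log2 fold change was -0.04 over the 10 genes and -0.01 over all tested genes, so the genes did not move as a block. The 3 sorafenib values and the 3 control values did not overlap for 8 of the 10 genes, against 36.3% of all tested genes. For each of those 8 genes an exact two-sided permutation test over the samples gave p = 0.1, the smallest that 3 against 3 libraries can give. In bulk RNA a change in the number of cells that express a gene and a change in RNA per cell cannot be told apart.

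**Figure D1:**
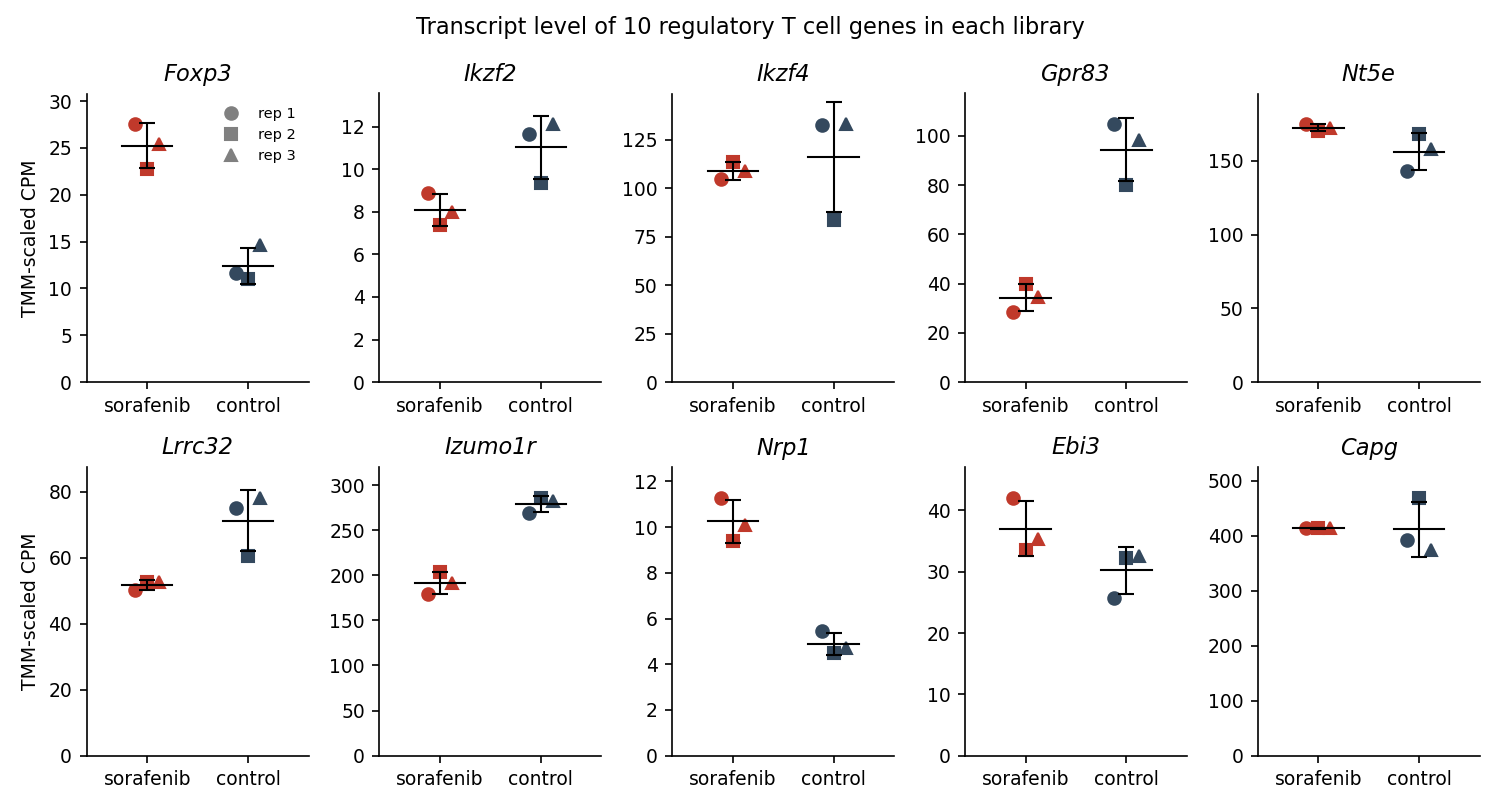
TMM-scaled CPM of each of the 10 genes in the 3 sorafenib libraries (red) and the 3 control libraries (dark blue), with symbols for replicates 1 to 3, and bars for the mean and SD. Foxp3 and Nrp1 are higher in every sorafenib library, Gpr83, Izumo1r, Lrrc32 and Ikzf2 are lower in every sorafenib library, and control replicate 2 (square) is the lowest control for Foxp3, Ikzf2, Ikzf4, Gpr83, Lrrc32 and Nrp1.

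Foxp3 had 27.5, 22.7 and 25.4 CPM in sorafenib cells and 11.6, 11.0 and 14.6 CPM in control cells. CPM here are counts scaled to a common library size with TMM factors. The lowest sorafenib library lay above the highest control library. The means were 25.2 ± 2.40 CPM and 12.4 ± 1.91 CPM (SD, n = 3 each), a 2.03-fold rise (log2 fold change 1.02 ± 0.12 SE, edgeR adjusted p = 0.000356). The raw counts behind these values were 871 to 1068 in sorafenib and 380 to 548 in control libraries. Foxp3 overlaps other annotated genes in RefSeq, the long non-coding RNA Flicr at its start and Ccdc22 at its end, and the sources used here do not give the strand setting of the counting, so reads of overlapping parts cannot be assigned with certainty. Flicr had 39 to 50 counts in sorafenib and 37 to 54 in control libraries (adjusted p = 0.943). Ccdc22, which encodes a protein of an endosomal sorting complex, had 17.6 ± 1.53 CPM in sorafenib and 18.7 ± 2.13 CPM in control cells (SD, n = 3 each, edgeR adjusted p = 0.617). The Foxp3 call held in all 17 alternatives tried, with log2 fold changes of 0.90 to 1.16.

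The Ikaros family factors Ikzf2 and Ikzf4 did not follow Foxp3. Ikzf2, which encodes Helios, a factor of stable and largely thymus-derived regulatory T cells, had 8.88, 7.38 and 7.99 CPM in sorafenib and 11.6, 9.35 and 12.1 CPM in control cells. All 3 sorafenib values lay below all 3 control values, but the gap between the highest sorafenib and the lowest control value was small. It fell 1.36-fold (log2 fold change -0.45 ± 0.13 SE, edgeR adjusted p = 0.0403). That call was lost without control replicate 1 or 3, without any 1 sorafenib library and with upper-quartile, total-count or FPKM scaling (adjusted p up to 0.323 in the alternatives), while without control replicate 2 it was firmer (adjusted p = 0.00162).

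Ikzf4, which encodes Eos, a partner of Foxp3 in gene silencing in mouse regulatory T cells, had 105, 114 and 109 CPM in sorafenib and 132, 83.6 and 133 CPM in control cells. Control replicates 1 and 3 lay above all sorafenib libraries and control replicate 2 below them, so the groups overlapped. The test gave a log2 fold change of -0.09 ± 0.15 SE (edgeR adjusted p = 0.726). Without control replicate 2 the gene was called lower (log2 fold change -0.28, edgeR adjusted p = 0.000782), and without control replicate 1 or 3 the sign turned. The coefficient of variation of Ikzf4 was 4.24% among sorafenib and 24.3% among control libraries, the widest control spread of the 10 genes. Of the other Ikaros family members, Ikzf1 (Ikaros) had 394 ± 12.9 CPM in sorafenib and 337 ± 21.6 CPM in control cells (SD, n = 3 each, edgeR adjusted p = 0.0614). Ikzf3 (Aiolos) had 67.6 ± 7.48 CPM in sorafenib and 82.9 ± 18.7 CPM in control cells (SD, n = 3 each, edgeR adjusted p = 0.214), and Ikzf5 (Pegasus) had 18.2 ± 0.481 CPM and 18.6 ± 1.41 CPM (edgeR adjusted p = 0.863). In this family of 5, 0 members were called higher and 1, Ikzf2, lower, where 17.9% of all tested genes were called. At an unadjusted p under 0.05, 1 member, Ikzf1, was higher, and it was called higher by DESeq2 (adjusted p = 0.0277) but not by limma-voom. It was also called higher with upper-quartile factors, with total counts only and on filtered FPKM (adjusted p = 0.0336 to 0.0418). Without control replicate 2, Ikzf1 was called higher (edgeR adjusted p = 0.0155) and Ikzf3 lower (edgeR adjusted p = 0.000684).

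Among the surface proteins, Gpr83 changed most. This G protein-coupled receptor is enriched on mouse regulatory T cells. It had 28.5, 39.8 and 34.7 CPM in sorafenib and 105, 80.0 and 98.2 CPM in control cells. The groups were far apart, with every sorafenib library well below the lowest control library, replicate 2. Gpr83 fell 2.75-fold (log2 fold change -1.46 ± 0.13 SE, edgeR adjusted p = 5.71e-05), and the call held in all 17 alternatives, with log2 fold changes of -1.57 to -1.28.

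Izumo1r encodes folate receptor 4, also called Juno, a surface marker of regulatory and anergic CD4 T cells in mice that is the IZUMO1 receptor on eggs. It had 179, 204 and 192 CPM in sorafenib and 269, 286 and 283 CPM in control cells. The groups were well apart, and the control libraries lay close together. Izumo1r fell 1.46-fold (log2 fold change -0.54 ± 0.07 SE, edgeR adjusted p = 0.000614), again in all 17 alternatives. Gpr83 and Izumo1r are adjacent on chromosome 9 in the RefSeq annotation of GRCm38.p6, with 0 annotated genes between them. The next protein-coding genes on either side did not pass the test: Mre11a, a DNA break repair nuclease, had 42.6 ± 1.95 CPM in sorafenib and 40.7 ± 0.484 CPM in control cells (SD, n = 3 each, edgeR adjusted p = 0.596). Panx1, a membrane channel, had 54.9 ± 0.490 CPM in sorafenib and 61.3 ± 3.32 CPM in control cells (SD, n = 3 each, edgeR adjusted p = 0.155).

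Lrrc32 encodes GARP, which holds latent TGF-beta on the surface of activated regulatory T cells. It had 50.1, 52.7 and 52.5 CPM in sorafenib and 75.0, 60.6 and 78.1 CPM in control cells. The sorafenib libraries were tightly grouped below all controls, and control replicate 2 was the nearest to them. Lrrc32 fell 1.38-fold (log2 fold change -0.46 ± 0.10 SE, edgeR adjusted p = 0.00782). The call was lost without sorafenib replicate 1 (adjusted p = 0.0531), with total counts only and on FPKM (adjusted p up to 0.172 in the alternatives).

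Nrp1 encodes neuropilin 1, a co-receptor for semaphorins and VEGF that marks thymus-derived regulatory T cells in mice. It had 11.3, 9.39 and 10.1 CPM in sorafenib and 5.44, 4.50 and 4.72 CPM in control cells. Every sorafenib library lay well above every control library, at a low level in both. Nrp1 rose 2.10-fold (log2 fold change 1.07 ± 0.13 SE, edgeR adjusted p = 0.000418) in all 17 alternatives. Its size moved to a log2 fold change of 0.48 on log2(FPKM + 1), where the pseudocount is larger than the level of the gene.

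Nt5e encodes CD73, the ectoenzyme that turns extracellular AMP into adenosine. It had 175, 170 and 172 CPM in sorafenib and 143, 168 and 158 CPM in control cells. The groups did not overlap, but the lowest sorafenib and the highest control library lay close together. The log2 fold change was 0.14 ± 0.07 SE (edgeR adjusted p = 0.219), and without control replicate 2 it was called higher (log2 fold change 0.20, edgeR adjusted p = 0.0107). It also passed with total counts only (adjusted p = 0.0374) and on FPKM filtered at a mean of 0.5 (adjusted p = 0.0280 with either pseudocount).

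Ebi3 encodes the subunit shared by the cytokines IL-27 and IL-35. It had 42.0, 33.5 and 35.4 CPM in sorafenib and 25.7, 32.2 and 32.6 CPM in control cells. The lowest sorafenib library barely cleared the highest control library. The log2 fold change was 0.29 ± 0.12 SE (edgeR adjusted p = 0.114, lowest 0.0331 and highest 0.397 in the alternatives), and without control replicate 2 Ebi3 was called higher (log2 fold change 0.34). It was also called higher with total counts only, with no filter on low counts and on filtered FPKM (adjusted p = 0.0388 to 0.0492). Reads of Ebi3 are also uncertain where it overlaps Zfp119b and Gm16712 in the annotation; neither of these passed the test (adjusted p = 0.417 and 0.863).

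Capg, which caps the growing ends of actin filaments, had 413, 414 and 414 CPM in sorafenib and 391, 468 and 375 CPM in control cells. The sorafenib libraries lay inside the range of the controls and differed among themselves by far less than the controls did, with a coefficient of variation of 0.189% against 12.2%. The log2 fold change was 0.01 ± 0.09 SE (edgeR adjusted p = 0.968), and the gene was called in 0 of 17 alternatives.

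**Figure D2:**
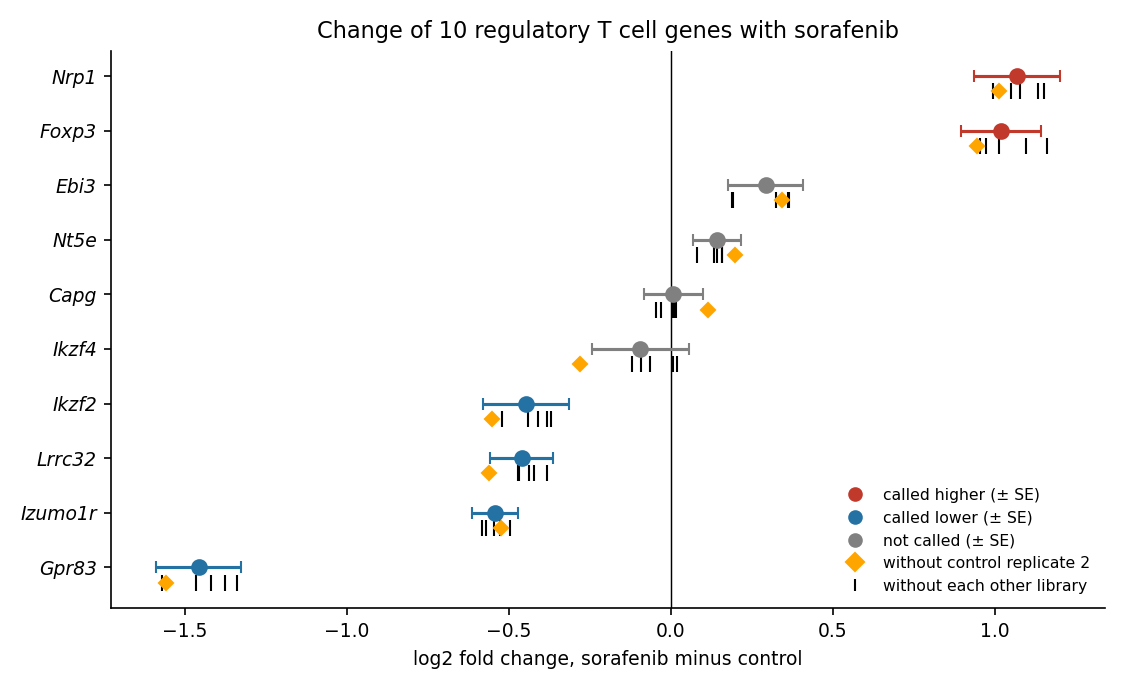
Log2 fold change (sorafenib minus control) of each gene with its SE from edgeR, coloured by call, with the value after leaving out each library below it. Leaving out control replicate 2 (orange) moves Ikzf4 from -0.09 to -0.28 and leaves Foxp3, Nrp1, Izumo1r and Gpr83 on the same side of 0.

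Without control replicate 2, 4 of the 10 genes were called higher, Foxp3, Nrp1, Nt5e and Ebi3, and 5 lower, Gpr83, Izumo1r, Lrrc32, Ikzf2 and Ikzf4. The share of all tested genes called was then 31.8%. Without sorafenib replicate 1, 2 of the 10 were called higher and 2 lower, where 9.51% of all tested genes were called.

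Levels of different genes were compared per length, on the deposited FPKM. In sorafenib cells Capg was the most abundant at 215 ± 1.54 FPKM, followed by Izumo1r at 59.9 ± 4.19, Nt5e at 49.4 ± 0.362 and Ebi3 at 32.4 ± 3.72 FPKM (SD, n = 3). Lrrc32 at 12.9 ± 0.432, Ikzf4 at 11.7 ± 0.565, Gpr83 at 8.35 ± 1.43 and Foxp3 at 6.59 ± 0.588 FPKM formed a middle range, and Nrp1 at 1.08 ± 0.0941 and Ikzf2 at 0.774 ± 0.0676 FPKM were lowest. In control cells the order began in the same way, with Capg at 202 ± 15.3, Izumo1r at 82.8 ± 2.60, Nt5e at 42.4 ± 1.82 and Ebi3 at 25.1 ± 2.75 FPKM (SD, n = 3). There Gpr83 came next at 21.8 ± 3.91 FPKM, then Lrrc32 at 16.9 ± 2.92, Ikzf4 at 11.9 ± 3.36, Foxp3 at 3.09 ± 0.557, Ikzf2 at 1.01 ± 0.176 and Nrp1 at 0.490 ± 0.0694 FPKM. Among neighbours in the order, only Gpr83 and Foxp3 overlapped in sorafenib cells, whereas Ebi3 and Gpr83, Gpr83 and Lrrc32, and Lrrc32 and Ikzf4 overlapped in control cells. So in control cells the FPKM of Gpr83 exceeded that of Foxp3 in every library, and in sorafenib cells their ranges met. Among the 13255 tested genes, Foxp3 stood on average at the 53.6th percentile of FPKM in sorafenib and the 40.2nd percentile in control libraries, and Gpr83 at the 58.5th and 79.6th.

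**Figure D3:**
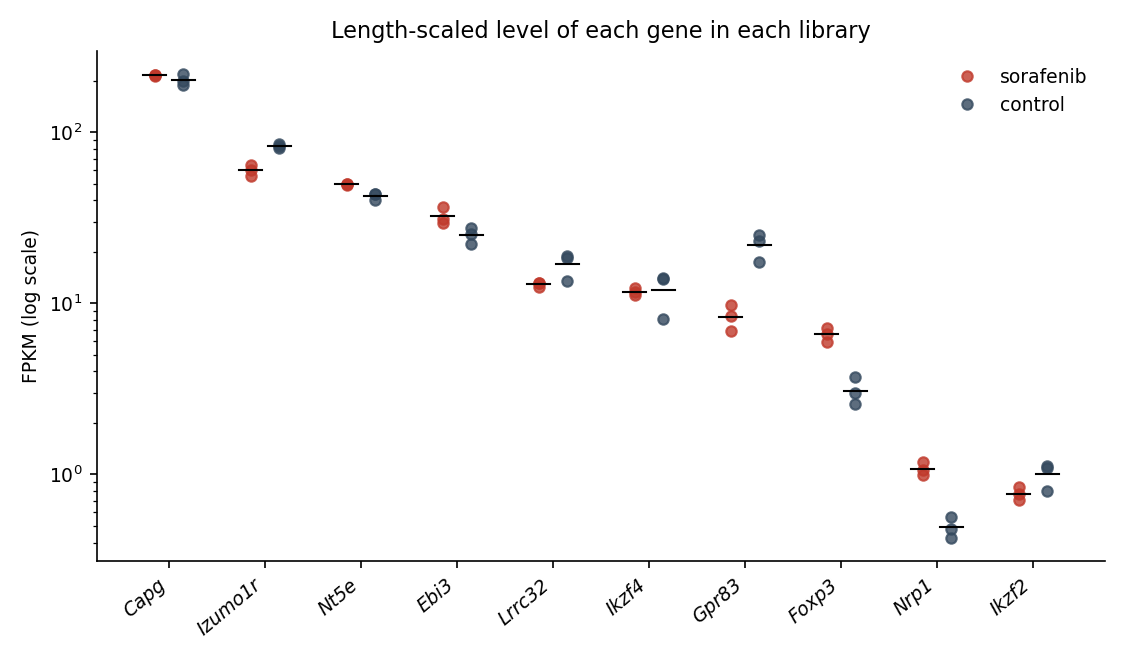
FPKM on a log scale of each gene in the 3 sorafenib libraries (red) and the 3 control libraries (dark blue), with black bars for group means, ordered by the sorafenib mean. Capg is highest and Ikzf2 and Nrp1 are lowest in both groups, and Gpr83 stands beside Foxp3 in sorafenib cells but above it in control cells.

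The protein-coding genes that flank the 10 were also measured. Of 11 tested neighbours that are not among the 10, 0 were called higher and 1 lower at an adjusted p under 0.05 by edgeR, where 17.9% of all tested genes were called, so the count does not set the neighbours apart from other genes. At an unadjusted p under 0.05, 2 of the 11 differed, and the share of all tested genes at that threshold is not given here. DESeq2 and limma-voom called 0 of them higher too, where over all genes they called 1241 and 1149 higher. The 1 called was Emsy, a chromatin-associated gene, singled out after its values were seen. It is the next protein-coding gene to Lrrc32, with 2 annotated genes between them. Emsy had 67.9 ± 5.05 CPM in sorafenib and 105 ± 19.5 CPM in control cells (SD, n = 3 each, edgeR adjusted p = 0.00548), a call lost on unfiltered FPKM (adjusted p = 0.143). Its count in control replicate 2 was 2863, against 4270 and 4459 in the other controls and 2414 to 2837 in the sorafenib libraries, and in Lrrc32 too control replicate 2 was the control nearest to the sorafenib libraries.

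Genes with the pattern most like that of Foxp3 were ranked by Pearson's r of log2 CPM over the 6 libraries, among the 8766 genes that averaged a log2 CPM of 3 or more. The closest were Tnfrsf10b, a death receptor for TRAIL (r = 0.997), Colgalt1, a collagen glycosyltransferase, Leo1, a subunit of the PAF1 complex, the integrin Itgae and the membrane protein Ckap4 (r = 0.996 each). The value describes mainly the gap between the groups, since 584 of these genes had r above 0.9. Itgae, the integrin alpha chain CD103 of many regulatory T cells, had 18.7, 15.9 and 17.8 CPM in sorafenib and 5.50, 5.28 and 7.22 CPM in control cells. The order of libraries within each group was that of Foxp3. Itgae was picked by its r over these same libraries, so the shared order is no separate result.

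The wider set of regulatory T cell genes, 35 tested of 38 in the table and none of them among the 10, moved in both directions. In all, 10 rose and 10 fell, 57.1% of the list against 17.9% of all tested genes, with a median log2 fold change of -0.13. The largest changes were falls of the matrix protein gene Ecm1 (log2 fold change -2.59), of the cytokine Il10 (-1.37) and of the costimulatory receptor Tnfrsf9 (-1.32), and rises of Itgae (1.54), of S100a4, a calcium-binding protein (1.5), and of Fgl2, a secreted suppressive mediator (1.27). Il2ra, the interleukin 2 receptor chain on which regulatory T cells depend, had 1919 ± 71.1 CPM in sorafenib and 3066 ± 237 CPM in control cells (SD, n = 3 each), a 1.6-fold fall (edgeR adjusted p = 0.00127). Without control replicate 2, 10 rose and 14 fell of 35, where 31.8% of all tested genes were called. Without sorafenib replicate 1, 6 rose and 6 fell, where 9.51% of all tested genes were called, and without sorafenib replicate 3, 6 rose and 7 fell, where 9.15% were called. This list was drawn up with earlier results of these data known, and it holds genes that activated T cells of other kinds also express.

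Genes listed as acting on Foxp3 were also measured, in lists that were likewise drawn up with earlier results of these data known. Whether a listed gene acts on Foxp3 in the listed direction in these cells was not tested. Of 29 tested genes listed as activators and cofactors, 6 rose and 3 fell, 31% of the list against 17.9% of all tested genes. The median log2 fold change was 0.05. Nr4a3, a nuclear receptor that can drive Foxp3 transcription in mice, had 49.7 ± 1.37 CPM in sorafenib and 23.2 ± 1.84 CPM in control cells (SD, n = 3 each, log2 fold change 1.10, edgeR adjusted p = 2.12e-05). Rises were also called for Tet1, a DNA demethylase (log2 fold change 0.82), Rel, the NF-kappaB subunit c-Rel (0.60), Gata3 (0.53) and Nr4a1 (0.44). Gata3 was also counted among the Th9 markers above. Satb1, a chromatin organiser, fell (-0.67). Of the transducers of the signals that induce Foxp3, Stat5a, Stat5b, Smad2 and Smad3 did not pass the test. Stat5a had 553 ± 11.9 CPM in sorafenib and 520 ± 43.6 CPM in control cells (SD, n = 3 each, edgeR adjusted p = 0.523). Stat5b had 555 ± 6.63 CPM in sorafenib and 612 ± 25.3 CPM in control cells (SD, n = 3 each, edgeR adjusted p = 0.228). Smad3 had 89.5 ± 4.83 CPM in sorafenib and 90.4 ± 8.04 CPM in control cells (SD, n = 3 each, edgeR adjusted p = 0.934). Smad2, named after its values were seen, had 72.5 ± 1.69 CPM and 64.3 ± 2.50 CPM (edgeR adjusted p = 0.109). The transcription factor Runx1 did not pass either, with 119 ± 5.68 CPM and 123 ± 10.4 CPM (edgeR adjusted p = 0.755). With control replicate 2 left out, 9 of the 29 rose and 9 fell, where 31.8% of all tested genes were called. Stat5b was then among the falls and Smad2 among the rises (edgeR adjusted p = 0.0176 and 0.0222). Smad2 was also called higher with total counts only (edgeR adjusted p = 0.0321). With sorafenib replicate 3 left out, 4 rose and 1 fell, where 9.15% of all tested genes were called. Leaving out sorafenib replicate 1 gave 4 higher and 2 lower, and leaving out control replicate 3 gave 5 higher and 1 lower. In these fits 9.51% and 11.7% of all tested genes were called. The Tet1 call was lost without sorafenib replicate 1 or 3, without control replicate 3 and on unfiltered FPKM (adjusted p as high as 0.15 in the alternatives), and that of Gata3 on unfiltered FPKM (adjusted p = 0.053). The remaining 3 calls, a rise of the forkhead factor Foxo3 and falls of the transcription factors Runx3 and Ets1, were lost in 7, 4 and 7 of the 17 alternatives (adjusted p as high as 0.211, 0.136 and 0.139).

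Of 21 tested genes listed as restraining Foxp3, 1 rose and 6 fell, 33.3% of the list against 17.9% of all tested genes. The median log2 fold change was -0.18. This list too was drawn up with earlier results of these data known, so its share is only a description. The kinase gene Sgk1 had 120 ± 7.09 CPM in sorafenib and 231 ± 20.6 CPM in control cells (SD, n = 3 each, log2 fold change -0.94, edgeR adjusted p = 5.13e-05). Falls were also called for the Th1 factor Tbx21 (log2 fold change -1.01), the hypoxia factor Hif1a (-0.66), the cytokine signal inhibitor Socs3 (-0.59), the repressor Gfi1 (-0.45) and, the sixth, Stat3, which carries interleukin 6 signals (-0.38). The exception was Il6ra, the interleukin 6 receptor chain, with 50.6 ± 3.56 CPM in sorafenib and 27.8 ± 6.18 CPM in control cells (SD, n = 3 each, log2 fold change 0.86, edgeR adjusted p = 0.00202). Of the 21, 2 rose and 9 fell without control replicate 2, where 31.8% of all tested genes were called, and 1 rose and 4 fell without sorafenib replicate 1 or 3, where 9.51% and 9.15% were called. The Tbx21 call was lost without sorafenib replicate 1 or 3, without control replicate 1 or 3, on unfiltered FPKM and with total counts only (adjusted p as high as 0.14), that of Stat3 without any 1 sorafenib library (adjusted p up to 0.0657), and that of Gfi1 on unfiltered FPKM (adjusted p = 0.107).

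**Figure D4:**
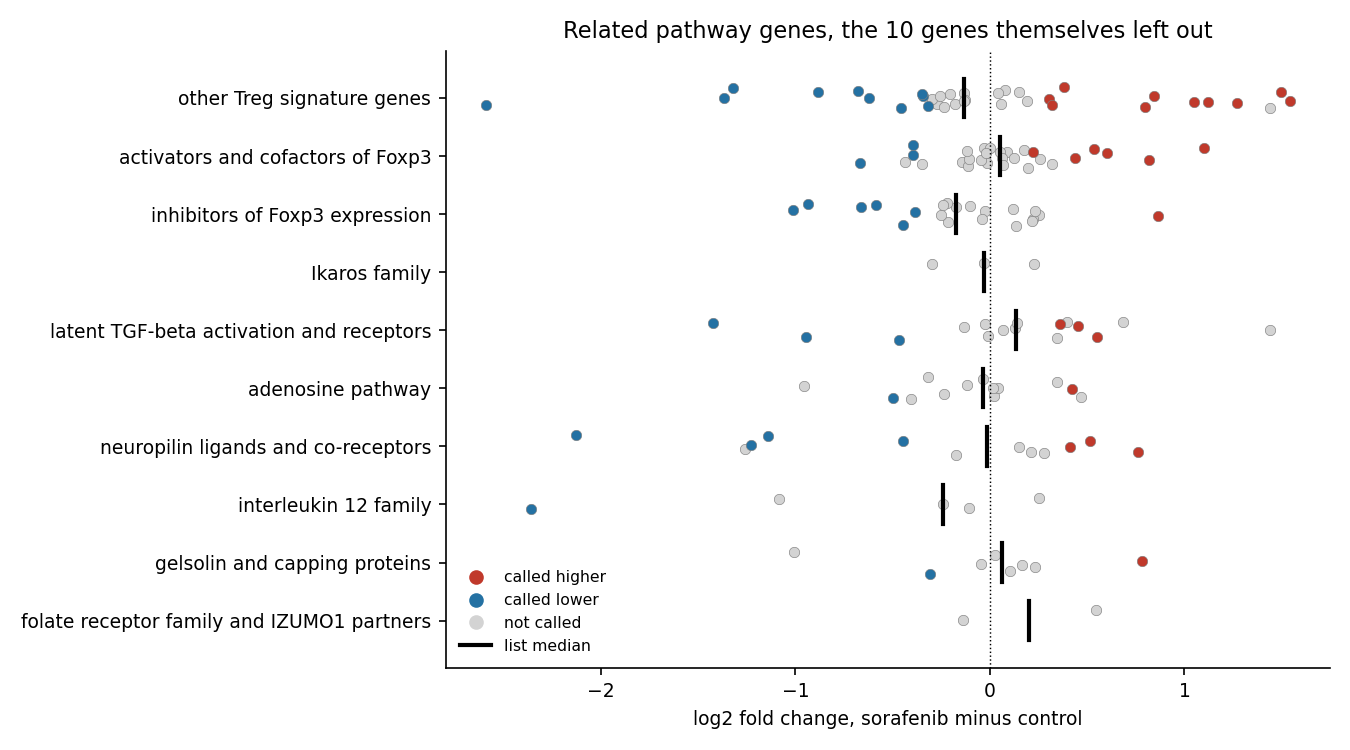
Log2 fold change (sorafenib minus control) of each tested gene in 10 related lists, without the 10 genes themselves, coloured by call, with a bar at the list's median. Calls lie on both sides of 0 among other Treg signature genes (10 higher, 10 lower of 35 tested). They lie mostly below 0 among genes listed as inhibitors of Foxp3 expression (1 higher, 6 lower of 21 tested). Of all tested genes 17.9% were called. Among the 6 falls, those of Tbx21, Stat3 and Gfi1 were lost in some alternatives.

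The pathway partners of the surface proteins gave the following picture. The partner lists here and below were chosen with earlier results of these data known, so their shares are only descriptions. For Lrrc32, of 16 other tested genes of latent TGF-beta activation and its receptors 3 rose and 3 fell, 37.5% of the list against 17.9% of all tested genes, with a median log2 fold change of 0.13. Tgfb1, the cargo of GARP, had 233 ± 16.9 CPM in sorafenib and 256 ± 22.8 CPM in control cells (SD, n = 3 each, edgeR adjusted p = 0.330). Tgfb3, another TGF-beta ligand, had 39.1 ± 5.26 CPM in sorafenib and 105 ± 9.54 CPM in control cells (SD, n = 3 each, log2 fold change -1.42, edgeR adjusted p = 2.05e-05). The latent TGF-beta binding protein Ltbp3 (log2 fold change -0.95) and the co-receptor Tgfbr3 (-0.47) fell too, while the inhibitory Smad7, itself induced by TGF-beta, rose (0.55). The other 2 rises, named after their values were seen, were those of the signalling receptors. Tgfbr1 had 67.8 ± 2.93 CPM in sorafenib and 49.5 ± 3.86 CPM in control cells (SD, n = 3 each, log2 fold change 0.45, edgeR adjusted p = 0.00304). Tgfbr2 had 231 ± 1.52 CPM in sorafenib and 180 ± 8.87 CPM in control cells (SD, n = 3 each, log2 fold change 0.36, edgeR adjusted p = 0.00383), and both were called in all 17 alternatives. Itgb8, an integrin chain that frees TGF-beta, had 28, 15 and 27 counts in sorafenib and 11, 6 and 7 counts in control libraries (edgeR adjusted p = 0.0568). Of the 16, 6 rose and 4 fell without control replicate 2, Tgfb1 among the falls (edgeR adjusted p = 0.0357), where 31.8% of all tested genes were called. The Tgfbr3 call was lost on FPKM (adjusted p up to 0.15).

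For Nt5e, 1 rose and 1 fell of 13 other tested adenosine pathway genes, 15.4% against 17.9% of all tested genes. Entpd1, which encodes CD39, the enzyme that supplies CD73 with AMP, had 13.6 ± 0.257 CPM in sorafenib and 16.0 ± 1.13 CPM in control cells (SD, n = 3 each, edgeR adjusted p = 0.121). The adenosine receptor Adora2a had 19.4 ± 4.35 CPM in sorafenib and 15.3 ± 4.56 CPM in control cells (SD, n = 3 each, edgeR adjusted p = 0.318). The receptor Adora2b fell (log2 fold change -0.50, edgeR adjusted p = 0.0171), and the nucleoside transporter Slc28a2 rose (0.42, edgeR adjusted p = 0.0106). Leaving out control replicate 2 gave 2 rises, Adora2a among them, and 4 falls, Entpd1 among them (edgeR adjusted p = 0.0351 and 0.0328), where 31.8% of all tested genes were called. The Adora2b call was lost without sorafenib replicate 1 or 3 or control replicate 3 (adjusted p up to 0.0788), and that of Slc28a2 on unfiltered FPKM and without sorafenib replicate 2 or 3 (adjusted p as high as 0.0659).

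For Nrp1, 3 rose and 4 fell of 12 other tested ligands, plexins and related genes, 58.3% of the list against 17.9% of all tested genes. The semaphorin Sema4a, a ligand of neuropilin 1 on mouse regulatory T cells, had 18.3 ± 0.446 CPM in sorafenib and 12.8 ± 2.06 CPM in control cells (SD, n = 3 each, log2 fold change 0.51, edgeR adjusted p = 0.0141). Plxna1, a plexin that carries semaphorin signals together with neuropilin 1, had 79.1 ± 1.08 CPM in sorafenib and 46.7 ± 7.12 CPM in control cells (SD, n = 3 each, log2 fold change 0.76, edgeR adjusted p = 0.000741), and was called in all 17 alternatives. Vegfa, a ligand of neuropilin 1 named after its values were seen, was well expressed and fell, with 336 ± 17.5 CPM in sorafenib and 457 ± 31.5 CPM in control cells (SD, n = 3 each, log2 fold change -0.44, edgeR adjusted p = 0.00367, lost on unfiltered FPKM at 0.0771). Plxnd1, another plexin, also rose (log2 fold change 0.41, edgeR adjusted p = 0.0258), a call lost without sorafenib replicate 1 or 3, without control replicate 1 and on FPKM with no filter (adjusted p as high as 0.128). Falls at low level were called for Sema3e, with 7, 9 and 9 counts in sorafenib and 35, 30 and 39 counts in control libraries, and for Pgf, with 16, 25 and 22 counts in sorafenib and 52, 50 and 37 counts in control libraries. Sema3f fell as well (log2 fold change -1.14, edgeR adjusted p = 0.0255). The calls of Sema3f and Pgf were lost without any 1 sorafenib library and without control replicate 1, that of Sema3f also without control replicate 3, and both on unfiltered FPKM (adjusted p as high as 0.151 and 0.124). That of Sema4a was lost on unfiltered FPKM (adjusted p = 0.0769) and without sorafenib replicate 1 or 3. With 15 genes passing the filter without control replicate 2, 4 rose and 6 fell, where 31.8% of all tested genes were called. Without sorafenib replicate 1 or 3, 1 rose and 2 fell, of 13 and 15 tested, where 9.51% and 9.15% of all tested genes were called.

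For Ebi3, the chains it pairs with were near the floor and were not tested in the reported fit. Il12a, its partner in IL-35, had 14, 0 and 8 counts in sorafenib and 0, 2 and 4 counts in control libraries. Il27, its partner in IL-27, had 19, 4 and 14 counts in sorafenib and 1, 0 and 3 counts in control libraries. Of the receptor chains, Il6st had 65.6 ± 2.74 CPM in sorafenib and 55.1 ± 6.34 CPM in control cells (SD, n = 3 each, edgeR adjusted p = 0.0808), and Il12rb2 fell (log2 fold change -2.36, edgeR adjusted p = 2.53e-06). In the interleukin 12 family as a whole, 0 rose and 1 fell of 5 other tested genes by edgeR, where 17.9% of all tested genes were called. At an unadjusted p under 0.05, 1 was higher, Il6st, and 2 were lower. DESeq2 called 0 higher and 2 lower, the second being the receptor chain Il12rb1 (DESeq2 adjusted p = 0.0498, edgeR adjusted p = 0.0632), and limma-voom called 0 higher and 1 lower. Without control replicate 2, 1 rose and 2 fell of 6 tested, where 31.8% of all tested genes were called. Il12rb1 was among the falls (edgeR adjusted p = 0.000122). Without sorafenib replicate 2, 1 rose and 1 fell of 6 tested, where 11.4% were called. In both fits the rise was of none of the 5, but of a gene that the filter had left out of the reported fit. Il6st was called higher without control replicate 1 (edgeR adjusted p = 0.0223) and with no filter on low counts (0.0469). Of 8 other gelsolin and capping protein genes 1 rose, Avil (log2 fold change 0.78), and 1 fell, Capza1 (-0.31), 25% of the list against 17.9% of all tested genes. Both calls were lost without sorafenib replicate 1 or control replicate 3, that of Avil also without sorafenib replicate 2, that of Capza1 also without sorafenib replicate 3 and with total counts only, both on unfiltered FPKM and Capza1 on filtered FPKM too (adjusted p as high as 0.0801 for Avil and 0.126 for Capza1). Of 9 tested without control replicate 2, 4 rose and 2 fell, where 31.8% of all tested genes were called. Of the folate receptor and IZUMO1 list, 2 genes other than Izumo1r were tested, and neither Slc19a1 (edgeR adjusted p = 0.337) nor Slc46a1 (edgeR adjusted p = 0.154) passed. Slc46a1 was called higher without control replicate 2 (edgeR adjusted p = 0.0371) and on filtered log2(FPKM + 1) (adjusted p = 0.0495).

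Markers of other cells moved with the treatment as well. Among T cell markers 0 rose and 5 fell of 8 by edgeR, where 17.9% of all tested genes were called (0 higher and 6 lower at an unadjusted p under 0.05 and by DESeq2, 0 higher and 5 lower by limma-voom), with a summed level of 1821 to 1929 CPM in sorafenib and 2276 to 2284 CPM in control libraries. Of these falls, that of Cd3e was lost in 8 of 17 alternatives (adjusted p as high as 0.203). That of Cd247 was lost without sorafenib replicate 3 and on unfiltered FPKM (0.0657 and 0.0602). With a library left out 3 to 6 T cell markers fell, where 9.15% to 31.8% of all tested genes were called. Of 5 measured B cell markers, 4 were tested and all 4 rose, with a summed level of 25.3 to 28.3 CPM in sorafenib and 6.68 to 14.4 CPM in control libraries, and Ms4a1 had at most 3 counts in any library. The Cd79a call was lost on unfiltered FPKM, without control replicate 1 or 3 and without any 1 sorafenib library (adjusted p as high as 0.105). Of 4 dendritic cell markers 3 were tested and 2 rose, with a summed level of 7.83 to 10.3 CPM in sorafenib and 3.25 to 4.68 CPM in control libraries, and Xcr1 had at most 3 counts. The Zbtb46 call among these was lost without sorafenib replicate 1 or 3 and on FPKM with no filter (adjusted p as high as 0.086). Of 2 CD8 T cell markers 1 rose, with a summed level of 8.89 to 11.1 CPM in sorafenib and 6.17 to 7.09 CPM in control libraries, and that call, of Cd8b1, was lost without sorafenib replicate 1 (adjusted p = 0.0779). Of 3 neutrophil markers 2 were tested and 1 fell, with a summed level of 0.204 to 0.567 CPM in sorafenib and 3.63 to 3.70 CPM in control libraries. That gene, Ly6g, had 1, 2 and 0 counts in sorafenib and 125, 120 and 125 counts in control libraries. Mpo, the other tested one, had 20, 10 and 8 counts in sorafenib and 11, 5 and 14 counts in control libraries. Mpo did not pass the test (edgeR adjusted p = 0.802), and Elane had at most 3 counts. The fall in the summed level is therefore that of Ly6g alone. Myeloid markers, at 6.79 to 8.63 CPM in sorafenib and 5.34 to 8.54 CPM in control libraries, and mast cell markers, at 18.2 to 19.4 CPM in sorafenib and 16.7 to 18.0 CPM in control libraries, had 0 called by edgeR, DESeq2 and limma-voom, of 2 and 1 tested (1 and 0 at an unadjusted p under 0.05). NK cell markers stood at 0.103 to 0.230 CPM in sorafenib and 0.0267 to 0.232 CPM in control libraries. The part of these cell types in the results for Foxp3 and the other genes was not tested.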

How the data were processed

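RNA-seq was examined from 3 sorafenib and 3 control libraries, grouped by the sample titles. Gene counts (whole numbers) and FPKM were deposited by the authors. Build GRCm39 and the tools HISAT2, HTSeq, fastp, DESeq2 and R 3.2.0 are named, per the submitters' processing notes, without their roles; the strand setting is not given in the sources used here. The deposited FPKM equalled the counts scaled by column total and gene length. The members and lists were chosen with earlier results of these data known.

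Counts were filtered with filterByExpr, scaled with TMM factors and tested by robust quasi-likelihood F tests (R 4.3.3, edgeR 4.0.16), group being the only term, with Benjamini-Hochberg adjustment over 13255 genes at a threshold of 0.05. The common biological coefficient of variation was 10.9%. Log2 fold changes are sorafenib minus control, and their standard errors follow from the F statistics. Related lists are described by counts and medians. For counts at an unadjusted p under 0.05, the share over all tested genes is not given, so they cannot be set against it. Over all genes DESeq2 called 2639 and limma-voom 2388, against 2378 by edgeR. Named genes are all 10 members, the called list genes with the largest changes (up to 6 or 4 a list), and fixed ligands, receptors and partners; others are said to be chosen after their values were seen. Alternatives were other scalings, filters, leaving out each library, a replicate block, limma-voom, limma-trend on FPKM (limma 3.58.1) and DESeq2 1.42.0. The test was tested on simulated counts for this comparison (3 draws, 13255 genes): it recovered 67.9% of 1.5-fold and 82.8% of 2-fold changes, and 10.8% of its calls were false. Far fewer genes were changed in the simulation than were called in the data, and each gene had the same spread in both groups. These shares therefore need not hold for the reported calls.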

Additional observations from a re-analysis of the deposited data

How the results depend on the processing

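Foxp3 rose in all 17 alternatives (log2 fold change 0.94 to 1.16 with a library left out, 1.03 with a replicate block). Of the 10 genes, 6 were called with a replicate block, as in the reported fit, where 17.9% of all tested genes were called. With a library left out 4 to 9 of the 10 were called, 2 to 4 higher and 2 to 5 lower. The share of all tested genes was then 9.15% to 31.8%. With total counts only, and on log2(FPKM + 1) or log2(FPKM + 0.1) filtered at a mean of 0.5, 4 were called higher and 2 lower; on unfiltered FPKM 2 were called lower. The sign of Ikzf4, which was not called, turned without control replicate 1 or 3 (log2 fold change -0.281 to 0.0192 with a library left out) and on log2(FPKM + 1), filtered or not (0.0098), and log2(FPKM + 0.1) (0.0139); that of Capg turned without control replicate 1 or 3 (-0.0464 to 0.113 with a library left out). Over all genes 2378 were called, 1128 higher and 1250 lower, and 1243 to 4325 with a library left out, 559 to 2035 higher and 684 to 2290 lower. Total counts only called 826 lower, and log2(FPKM + 1), log2(FPKM + 0.1) and unfiltered FPKM called 744, 737 and 520 lower, with 1423 in all unfiltered. The share of calls that were higher was 47.4%, against 64.4% with total counts only and 65.3% on log2(FPKM + 1), and the median log2 fold change of all genes -0.01, against 0.07 and 0.05. Of the related list genes, 54 were called, 25 higher and 29 lower, where 17.9% of all tested genes were called. A library left out gave 34 to 89, 16 to 40 higher and 18 to 49 lower. The lowest were without sorafenib replicate 1 or 3, where 9.51% and 9.15% of all tested genes were called. The highest was without control replicate 2, where 31.8% were called. The deviations of same-numbered libraries had correlations of -0.06, 0.15 and 0.10, not all above 0.1, so the numbers were not taken to pair the samples; the block called 2139 genes. The cause of these shifts was not tested. Depth limits Il12a and Il27, which had at most 19 counts.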

Other observations

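Control replicate 2 differed from the mean of control replicates 1 and 3 by -0.67 (log2 CPM) in Ikzf4, and 10.5% of tested genes had a gap at least as large in either direction. The gap was -0.34 in Ikzf2, Gpr83 and Lrrc32, which 31.3% to 31.9% of tested genes reached, -0.24 in Foxp3, -0.17 in Nrp1, 0.05 in Izumo1r, 0.15 in Ebi3, 0.16 in Nt5e and 0.29 in Capg. Control replicate 2 thus stood on the sorafenib side of that mean in Gpr83, Lrrc32, Ikzf2, Ikzf4, Nt5e and Ebi3. It stood on the far side in Foxp3, Nrp1 and Izumo1r. In Ebi3 control replicate 2 lay between the other controls, at 32.2 CPM against 25.7 and 32.6 CPM.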
